A study of Mus musculus with 23 samples.

Results

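Genes of innate defence were followed in tumor cells that start from alveolar type 2 (AT2) cells, the surfactant-secreting cells of the lung alveolus. The 8 genes *Lyz1*, *Lyz2*, *Chia1*, *Lcn2*, *Slpi*, *Il33*, *Il18* and *C3* were taken by symbol from both deposited tables of normalized counts, which list 35455 and 35454 genes. All 8 were present in both tables, and all 8 had a mean of at least 10 normalized counts in each, the level from which genes were tested.

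RNA was sequenced from flow sorted tdTomato+ lung tumor cells in 23 libraries, each from its own mouse. All mice carried the *Braf* CAT/+ allele, which after CRE recombination makes a single mRNA for BRAF V600E and the red fluorescent protein tdTomato. Tumors were started through the nose with an adenovirus, Ad5-Sftpc-CRE, whose CRE is driven by the *Sftpc* promoter and is thereby limited to cells that use it, chiefly AT2 cells. The first table holds 6 libraries of BRAF V600E tumors (1, 3 and 2 at 2, 6 and 12 weeks p.i.) and 8 of BRAF V600E/PI3Kα H1047R tumors (2, 4 and 2), whose mice also carried the *Pik3ca* HR/+ allele, which makes the activated lipid kinase PI3Kα H1047R after recombination. The second table holds 5 libraries of mice with 1 floxed and 1 intact *Ppargc1a* allele (PGC1α Het) and 4 of littermates with both alleles floxed (PGC1α Null), all on *Braf* CAT/+ at 12 weeks p.i. *Ppargc1a* encodes PGC1α, a transcriptional coactivator of mitochondrial genes. Mice were of mixed background and 3 to 4 months old. The virus titer was lower in the mice kept to 12 weeks than in those taken at 2 and 6 weeks, so that week 12 and the titer cannot be told apart. The tables were normalized separately, and no test was made between them.

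The alveolar lining meets inhaled microbes, and AT2 cells answer with secreted proteins as well as with surfactant. Lysozymes cut the peptidoglycan of bacterial walls, chitinases cut the chitin of fungi and arthropods, lipocalin 2 withholds iron by binding bacterial siderophores, and the antiprotease SLPI blocks neutrophil elastase. IL-33 and IL-18 are cytokines of the IL-1 family that damaged or infected barrier cells release, and C3 is the protein on which all routes of complement activation meet. None of these genes is used by AT2 cells alone: *Lyz2* is a textbook gene of macrophages and neutrophils, *Lyz1* of intestinal Paneth cells, and *Lcn2* of neutrophils.

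The pair of lysozyme genes lies side by side on chromosome 10, *Lyz1* at chr10:117287797-117292868 and *Lyz2* at chr10:117277331-117282321, both on the minus strand with 4 exons (GRCm38, GENCODE vM21). Because reads of near-identical genes can be assigned to the wrong copy, the start of both coding sequences is shown here, 5′ to 3′, with the bases that differ in capitals (17 of the 22 that differ over all 447 coding bases).
Lyz1: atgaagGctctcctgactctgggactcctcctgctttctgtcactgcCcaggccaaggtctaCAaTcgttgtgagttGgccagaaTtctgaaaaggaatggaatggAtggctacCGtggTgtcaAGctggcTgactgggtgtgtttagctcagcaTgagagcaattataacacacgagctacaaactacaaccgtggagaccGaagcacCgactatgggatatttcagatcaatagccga
Lyz2: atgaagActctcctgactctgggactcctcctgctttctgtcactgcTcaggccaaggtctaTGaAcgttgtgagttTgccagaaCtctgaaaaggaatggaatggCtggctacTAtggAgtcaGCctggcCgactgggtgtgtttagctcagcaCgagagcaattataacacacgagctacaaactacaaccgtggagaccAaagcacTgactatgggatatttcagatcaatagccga
The coding sequences are 95.1% identical. Of the 1214 windows of 50 bases in the *Lyz1* transcript, the read length of the study, 195 (16.1%) also occur in *Lyz2*, and the longest run without a difference is 118 bases. *Lyz1* has far fewer counts than *Lyz2* in most libraries, and what share of them are *Lyz2* reads was not tested. By stretches of 31 bases, *Lyz1* shares 34.2% with *Lyz2*, and *Lyz2* shares 32.8% with *Lyz1*. Of the other 6 genes, 5 share no such stretch with another gene. *Chia1* shares 1.15% of its stretches, 19 with *Gm6522* and 14 with the chitinase-like *Chil4*.

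The other 6 genes lie on different chromosomes or far apart. They are *Chia1* at chr3:106113229-106132120 (plus strand, 11 exons), *Lcn2* at chr2:32384633-32388252 and *Slpi* at chr2:164354070-164389095 (both minus strand, 6 and 4 exons), *Il18* at chr9:50554827-50581840 (plus strand, 6 exons), *C3* at chr17:57203970-57228136 (minus strand, 41 exons) and *Il33* at chr19:29925114-29960718 (plus strand, 8 exons). The 250 bases before each annotated RefSeq start were searched on both strands for 5 short motifs. The letters of the C/EBP motif, TTGCNNAA, occurred in 5 of the 9 promoters of these genes (*Il33* has a pair of starts), against 9.56% of 32851 promoters of all genes. Windows of 60 bases around the match are shown for 3 of these genes, with the matched letters in capitals. They are from RefSeq on GRCm38.p6, 5′ to 3′ on the gene's own strand.
Lcn2, chr2:32387922-32387981, minus strand: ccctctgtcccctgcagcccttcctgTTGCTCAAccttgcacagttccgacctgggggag
Lyz1, chr10:117293044-117293103, minus strand: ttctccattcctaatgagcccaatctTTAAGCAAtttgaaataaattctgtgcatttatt
C3, chr17:57228148-57228207, minus strand: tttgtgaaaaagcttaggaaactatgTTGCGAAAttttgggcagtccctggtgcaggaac
*Slpi* and the second start of *Il33* held the other matches. The FOXA motif TGTTTAC occurred at the first start of *Il33* (3.17% of all promoters), and an NF-kB motif (1.41%), CTCAAG (NKX2-1, 13.3%) and TGANTCA (AP-1, 6.75%) occurred in none of the 9. A match describes the letters of a window and does not show that a factor binds there.

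Normalized counts summed to 16433820 to 20287296 in a library of the first table and to 7115753 to 9159567 in one of the second, and the number of reads is unknown, so that precision is given by the spread between libraries. The labels give 5 female and 1 male mice for BRAF V600E, 3 and 5 for BRAF V600E/PI3Kα H1047R, 3 and 2 for PGC1α Het and 3 and 1 for PGC1α Null. Both BRAF V600E/PI3Kα H1047R libraries at 12 weeks p.i. went against their sex labels by the Y-linked *Kdm5d*, which had 502 normalized counts where the label says male and 4728 where it says female. The targeted gene *Ppargc1a* had 75.8 to 561 normalized counts (median 170) in PGC1α Het and 38.0 to 124 (median 62.1) in PGC1α Null libraries, and these ranges overlap. Its log2 difference was -1.51 (limma p = 0.0105, adjusted p = 0.978, exact permutation p = 0.0397). The table gives 1 value a gene, so the floxed exons themselves were not checked. With PI3Kα H1047R the log2 difference of *Ppargc1a*, weeks pooled, was -1.92 (limma p = 0.00065, adjusted p = 0.225, exact permutation p = 0.0027). Of the 8 libraries with PI3Kα H1047R, 7 were below every BRAF V600E library. *Pik3ca*, whose mRNA level does not report the H1047R change, had 3891 to 5933 normalized counts in BRAF V600E and 1376 to 4703 in BRAF V600E/PI3Kα H1047R libraries (log2 difference -0.54, limma adjusted p = 0.730). A list of 9 AT2 markers that holds none of the 8 genes summed to 471037 to 1275819 normalized counts in BRAF V600E libraries, and *Sftpc* alone to at least 164859. In the pair of BRAF V600E/PI3Kα H1047R libraries at 2 weeks the 9 markers summed to 116049 and 58418, and in replicate 1 at 6 weeks to 233472. The same 3 libraries had the highest sums of 6 endothelial markers, 51493, 53493 and 74831, against 4893 to 35813 over the 11 other libraries. They also had the highest sums of 7 fibroblast markers, 21411 to 32020 against 2147 to 11692, the highest of 7 markers of alveolar type 1 cells, 93725 to 134192 against 24834 to 83879, and the lowest of 5 general epithelial markers, 7949 to 9326 against 14313 to 25491. The pooled comparison is therefore given with and without these 3.

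Levels between genes were compared per kilobase of the longest coding transcript. *Lyz2* came first in both tables, with a median of 65316 normalized counts per kilobase over 14 libraries and 29995 over 9, and it exceeded every other member in each library. In the second table the ranges of *Lyz2* and the others do not overlap, while in the first the highest *Lyz1*, 20179 normalized counts per kilobase, exceeded the lowest *Lyz2*, 17321. *Lyz2* was among the most abundant of all genes, between the 5th and the 56th place in the libraries of the first table and between the 9th and the 16th in the second. *Lcn2* was next, with medians of 3885 and 3859 normalized counts per kilobase.

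Below *Lcn2* the order differed between the tables. In the first it was *Lyz1* (median 3294 normalized counts per kilobase), *Chia1* (1423), *Il33* (1118), *C3* (841), *Slpi* (148) and *Il18* (43.2), and every neighbour from *Lcn2* down overlapped the next in range. *Lcn2* exceeded *Lyz1* in 8 of 14 libraries, *Lyz1* exceeded *Chia1* in 8 and *Il33* exceeded *C3* in 8, so these neighbours do not differ beyond their spread. In the second table it was *Chia1* (578), *Slpi* (336), *Il33* (250), *Lyz1* (137), *C3* (82.6) and *Il18* (43.5). There *Lcn2* exceeded *Chia1* without overlap, while *Slpi* exceeded *Il33* in 5 of 9 libraries and *Il33* exceeded *Lyz1* in 6. The genes also differed in how far they ranged. The highest library exceeded the lowest 76.7 times for *Lyz1*, 18.2 to 26.7 times for *Slpi*, *Il33*, *Chia1*, *Il18* and *Lcn2*, 9.72 times for *Lyz2* and 7.91 times for *C3* in the first table. In the second the ratio was 7.69 for *C3* and 7.34 for *Lyz1* at one end and 1.59 for *Lyz2* at the other.

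**Figure D1:**
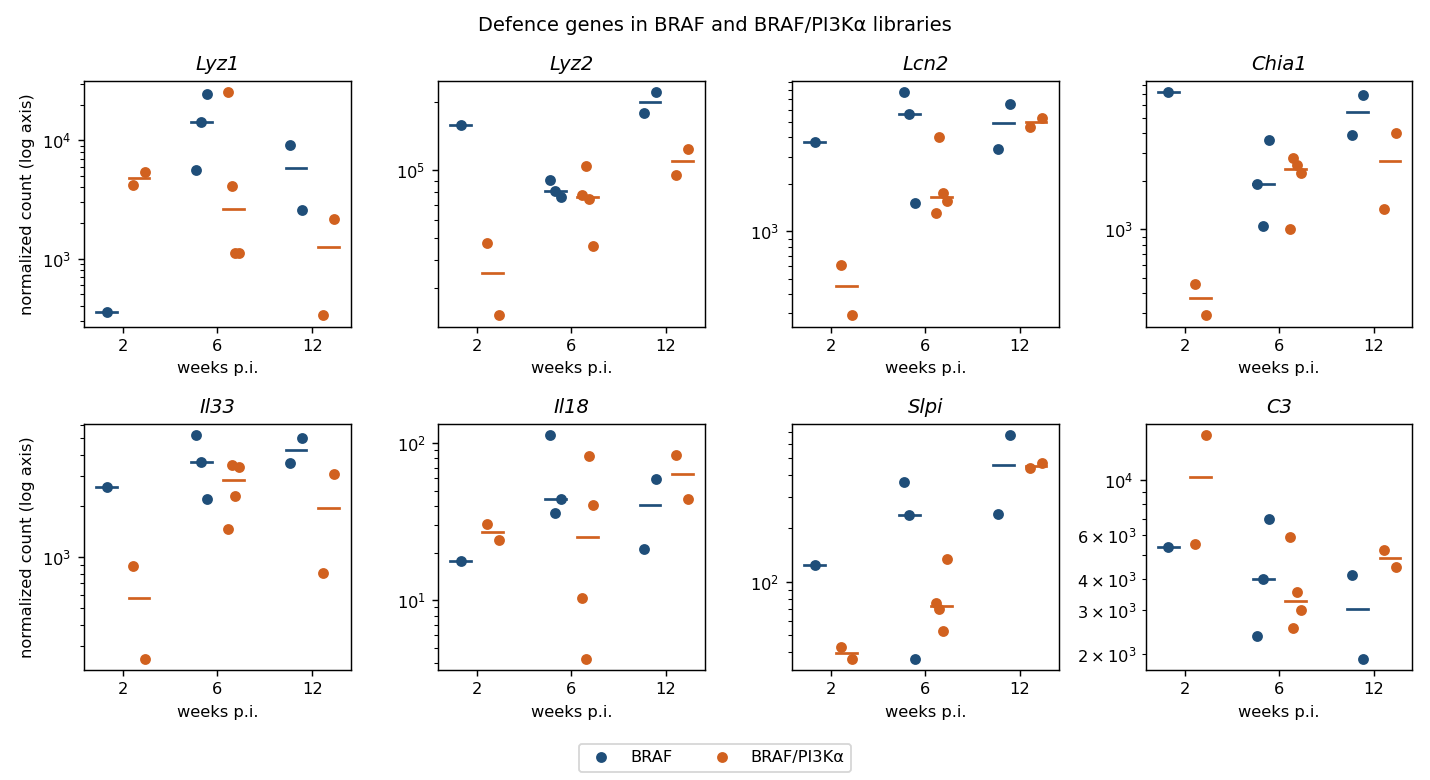
Normalized counts (log axis) of the 8 genes in 14 libraries by weeks p.i., with BRAF V600E in blue and BRAF V600E/PI3Kα H1047R in orange; each point is a library and each bar the median of a genotype and week. *Lyz2*, *Lcn2*, *Chia1*, *Il33* and *Slpi* are lower in both BRAF V600E/PI3Kα H1047R libraries at 2 weeks than in the single BRAF V600E library, and *Lyz1* is higher.

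The first comparison asks how the added PI3Kα H1047R relates to these genes, with the weeks pooled. Of the 8 genes, 7 had a lower mean log2 level with PI3Kα H1047R, by most for *Lcn2*, *Chia1* and *Il33*, and *C3* had a higher one. None of the 8 had a limma adjusted p-value under 0.05, a threshold that 4 genes (0.0228%) of the 17558 tested passed. Unadjusted, 4 of the 8 had a p-value under 0.05, *Lcn2*, *Chia1*, *Il33* and *Lyz2*, all of them lower, where 6.83% of all genes tested were under it and 3.38% were under it and lower. Each of the 4 rose above 0.05 when certain single libraries were left out, *Lcn2* in 10 and *Chia1* in 8 of the 14 cases, *Lyz2* in 3 and *Il33* in 2. The median log2 difference was -0.96 over the 8 genes and 0.02 over all genes tested, and 48.2% of all genes had a negative difference. In RNA of a sorted cell pool, fewer cells of a type and less RNA per cell cannot be told apart, which holds for every value that follows.

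Among the enzymes, *Lyz2* had 158867 normalized counts in the BRAF V600E library at 2 weeks, 90780, 81132 and 76093 in the 3 at 6 weeks and 178617 and 221572 in the pair at 12 weeks. In BRAF V600E/PI3Kα H1047R libraries it had 47730 and 22795 at 2 weeks, 77545, 104601, 74913 and 46410 at 6 weeks and 95612 and 123965 at 12 weeks. The groups overlap through the 6 week libraries, and the mean log2 value of BRAF V600E was above 7 of the 8 libraries with PI3Kα H1047R. On log2 (normalized count + 1) the difference was -0.90 (standard error 0.36, limma p = 0.0251, adjusted p = 0.672), and a two-sided exact permutation test over 3003 splits gave p = 0.0426. *Chia1*, the acidic chitinase, had 7199 normalized counts at 2 weeks, 1912, 1044 and 3625 at 6 weeks and 3910 and 6963 at 12 weeks in BRAF V600E libraries. With PI3Kα H1047R it had 455 and 290, then 1013, 2786, 2535 and 2248, then 1341 and 3983. Its libraries overlap widely at 6 weeks, and the lowest values of all were the pair at 2 weeks with PI3Kα H1047R. The pooled log2 difference was -1.31 (standard error 0.59, limma adjusted p = 0.718, exact permutation p = 0.0753).

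*Lyz1* behaved unlike its neighbour. It had 355 normalized counts in the BRAF V600E library at 2 weeks, 5668, 14167 and 24761 at 6 weeks and 9150 and 2606 at 12 weeks. With PI3Kα H1047R it had 4228 and 5383 at 2 weeks, 25486, 4093, 1124 and 1119 at 6 weeks and 332 and 2160 at 12 weeks. High and low libraries occurred in both genotypes, and replicate 1 with PI3Kα H1047R at 6 weeks held the highest value of the 14. The pooled log2 difference of -0.96 had a standard error of the same size, 0.96 (limma adjusted p = 0.862, exact permutation p = 0.389). *Lyz1* moved in part with the endothelial markers. The 4 libraries with the lowest endothelial sums, 4893 to 8404, had 332 to 5668 normalized counts of *Lyz1*, and the pair with the highest *Lyz1* had endothelial sums of 74831 and 35813. The pair with PI3Kα H1047R at 2 weeks, with endothelial sums of 51493 and 53493, went against this order, since its 4228 and 5383 lay below the 5668 of a library with an endothelial sum of 8404. With the mean log2 level of the 6 endothelial markers as a covariate, a fit chosen once the values were known, the difference was -2.26 (limma adjusted p = 0.402). Without the 3 libraries at 2 weeks, likewise chosen later, it was -2.01 (limma adjusted p = 0.944). Both of these had an unadjusted p-value under 0.05. The part of the endothelial cells or of the 2 week libraries in this gene was not tested further.

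*Lcn2*, whose product binds siderophores, had 3747 normalized counts at 2 weeks, 7761, 5590 and 1519 at 6 weeks and 3364 and 6526 at 12 weeks in BRAF V600E libraries. With PI3Kα H1047R it had 610 and 291, then 1315, 3994, 1765 and 1573, then 4654 and 5283. The 12 week libraries of the genotypes overlap, and 6 of 8 libraries with PI3Kα H1047R were below the BRAF V600E mean of log2 values. The log2 difference was -1.32 (standard error 0.60, limma adjusted p = 0.718, exact permutation p = 0.0756). *Slpi* had a BRAF V600E median of 240 normalized counts (36.9 to 670 over the 6 libraries) and a median of 73.1 (36.9 to 467) with PI3Kα H1047R. At 2 weeks it had 125 in the BRAF V600E library against 42.8 and 36.9. Its ranges overlap almost wholly, and the log2 difference was -0.96 (standard error 0.69, limma adjusted p = 0.799).

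The alarmin *Il33* had 2591 normalized counts at 2 weeks, 5213, 3640 and 2214 at 6 weeks and 3586 and 5000 at 12 weeks in BRAF V600E libraries. With PI3Kα H1047R it had 889 and 252, then 1469, 3479, 2302 and 3383, then 807 and 3098. All 8 libraries with PI3Kα H1047R were below the BRAF V600E mean of log2 values, and 4 were below every BRAF V600E library. The log2 difference was -1.26 (standard error 0.51, limma p = 0.0259, adjusted p = 0.672, exact permutation p = 0.0380). *Il18*, whose product needs cleavage by caspase-1, was listed at low levels throughout, 17.9 to 112 normalized counts in BRAF V600E and 4.25 to 84.1 with PI3Kα H1047R, with medians of 40.05 and 35.6. Its log2 difference was -0.46 (standard error 0.62, limma adjusted p = 0.898).

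*C3* was the gene with the opposite sign. It had 5380 normalized counts at 2 weeks, 2368, 4008 and 6985 at 6 weeks and 4152 and 1915 at 12 weeks in BRAF V600E libraries, and 5542 and 15149, then 5930, 2555, 3543 and 2997, then 5237 and 4486 with PI3Kα H1047R. Apart from the 15149 of replicate 2 at 2 weeks, every value with PI3Kα H1047R lay within the BRAF V600E range. The log2 difference was 0.37 (standard error 0.37, limma adjusted p = 0.861). With single libraries left out it ran from 0.14 to 0.55. The same range was -1.72 to -0.50 for *Lyz1*, -1.44 to -0.61 for *Slpi* and -0.68 to -0.10 for *Il18*.

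The libraries at 2 weeks are a single one of BRAF V600E from a female mouse and a pair with PI3Kα H1047R from males, so that sex and genotype cannot be told apart there. Without them the log2 difference was nearer to 0 for 6 genes, at -0.49 for *Lyz2*, -0.69 for *Lcn2*, -0.45 for *Chia1*, -0.81 for *Il33*, -0.65 for *Slpi* and 0.17 for *C3*. It was farther from 0 for *Lyz1*, at the -2.01 given above, and for *Il18*, at -0.65. With sex as labelled as a factor over all 14 libraries the first 4 of these were -0.48, -0.64, -0.96 and -0.76, values that rest on labels which *Kdm5d* went against in the pair of libraries named above. With the endothelial score as a covariate these 4 were -0.59, -0.66, -0.72 and -0.93. Without the 3 libraries of highest endothelial and lowest AT2 marker sums, a choice made once the values were known, they were -0.55, -0.45, -0.46 and -0.61, *Lyz1* was at -1.96, *Slpi* at -0.33, *Il18* at -0.15 and *C3* at -0.048. The signs of *Lyz2*, *Lcn2*, *Chia1* and *Il33* stayed negative in each of these fits, the sign of *C3* did not hold, and no adjusted p-value passed 0.05 in them. The part of the marker sums and of sex in these differences was not tested further.

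**Figure D2:**
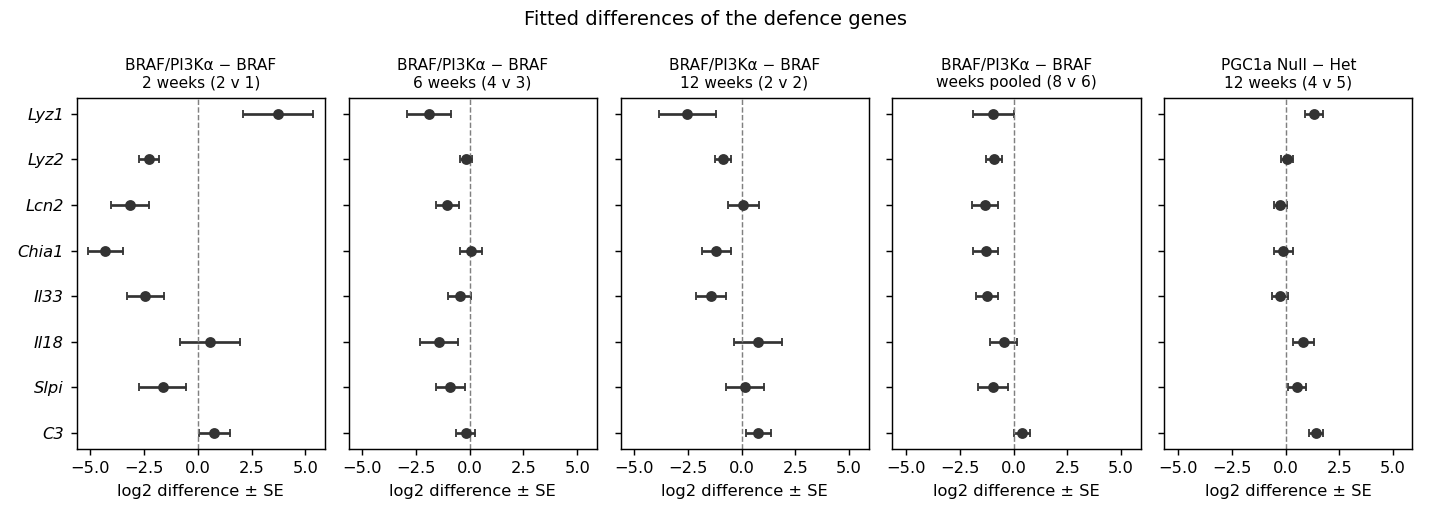
Fitted log2 differences of the 8 genes with their standard errors, by week and pooled for BRAF V600E/PI3Kα H1047R minus BRAF V600E, and for PGC1α Null minus PGC1α Het; the numbers of libraries stand above each panel. The differences at 2 weeks run from -4.30 for *Chia1* to 3.75 for *Lyz1*, while at 6 weeks *Lyz2* and *Chia1* lie near 0.

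Taken by week, the differences of 6 of the 8 genes were widest at 2 weeks p.i., all but *Il18* and *C3*. There *Chia1* was lower with PI3Kα H1047R by a log2 difference of -4.30 (limma adjusted p = 0.0767), *Lcn2* by -3.15 (adjusted p = 0.160), *Il33* by -2.45 (adjusted p = 0.244), *Lyz2* by -2.27 (adjusted p = 0.0886) and *Slpi* by -1.63 (adjusted p = 0.546). *Lyz1* was higher by 3.75 (adjusted p = 0.346), and *C3* and *Il18* had differences of 0.77 and 0.58. The single BRAF V600E library has no replicate, its spread was taken to be that of the other groups, and it differs from the pair in sex. Its AT2 marker sum was 647509 normalized counts against 116049 and 58418, and its endothelial sum 5730 against 51493 and 53493. On these terms 5 of the 8 had an unadjusted p-value under 0.05, against 13.5% of all genes, and 0.0171% of all genes had an adjusted p-value under 0.05.

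At 6 weeks p.i., the time with the most libraries, limma gave none of the 8 genes an unadjusted p-value under 0.05 (4.24% of all genes) or an adjusted one (0.0228%). The log2 differences were -1.89 for *Lyz1*, -1.43 for *Il18*, -1.05 for *Lcn2*, -0.91 for *Slpi*, -0.47 for *Il33*, -0.18 for *Lyz2* and *C3* and 0.05 for *Chia1*. *Lyz1* was lower than every BRAF V600E library in 3 of 4 libraries with PI3Kα H1047R, but the remaining library was above them all, and the exact permutation test gave p = 0.229 where 35 splits allow 0.0286. *Lcn2* was below the BRAF V600E mean of log2 values in 4 of 4 libraries (exact permutation p = 0.229). These differences depended on single libraries. *Slpi* ran from -0.26, without BRAF V600E replicate 1, to -1.90, without BRAF V600E replicate 3, and *Lcn2* from -0.58 to -1.75 without the same libraries. *Lyz1* ran from -1.36 to -2.86, the latter without PI3Kα H1047R replicate 1, and *Il18* from -0.75 to -2.09, the latter without PI3Kα H1047R replicate 3. The unadjusted p-value was under 0.05 at the far end of each of these 4 ranges, and for *Lcn2* also without PI3Kα H1047R replicate 2, while the lowest limma adjusted p with a library left out was 0.744.

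At 12 weeks p.i., with 2 libraries a genotype, both libraries with PI3Kα H1047R were lower than both BRAF V600E libraries for *Lyz1*, *Lyz2* and *Il33* and higher for *C3*. Over all genes, 13.8% were lower and 15.4% higher without overlap. *Lyz2* had a log2 difference of -0.87 (limma adjusted p = 1.00), *Lyz1* of -2.52, *Il33* of -1.42, *Chia1* of -1.17 and *C3* of 0.78. *Lcn2*, *Slpi* and *Il18* had differences of 0.08, 0.17 and 0.76. The count of genes called at an adjusted p-value under 0.05 was 2 of all tested (0.0114%), and 3.76% had an unadjusted p-value under 0.05, among the 8 genes only *Lyz2*. Replicate 1 with PI3Kα H1047R at 12 weeks, which held the lowest *Lyz1* of the 14 libraries, had the highest sum of 11 macrophage markers, 39555 normalized counts against 1929 to 14639 in the others. The difference of the PI3Kα H1047R effect between 12 and 6 weeks was -1.22 for *Chia1*, -0.95 for *Il33*, -0.69 for *Lyz2*, -0.63 for *Lyz1*, 0.97 for *C3*, 1.07 for *Slpi*, 1.13 for *Lcn2* and 2.19 for *Il18* on the log2 scale. No member passed either threshold for it, nor did any gene at an adjusted p-value under 0.05, with 2.87% of all genes under an unadjusted 0.05.

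The second question is how the genes varied with time after initiation, with genotype held in the fit. From 6 to 12 weeks p.i. *Slpi* and *Lyz2* stood out. *Slpi* had 368, 237 and 36.9 normalized counts at 6 weeks in BRAF V600E libraries and 76.3, 69.8, 53.0 and 134 with PI3Kα H1047R, against 242 and 670 and then 438 and 467 at 12 weeks. Of the 4 libraries at 12 weeks, 3 were above all 7 at 6 weeks. The log2 difference was 1.99 (standard error 0.55, limma p = 0.0030, adjusted p = 0.841), and an exact permutation test within genotypes over 150 splits gave p = 0.0133. It was 1.44 within BRAF V600E and 2.51 within BRAF V600E/PI3Kα H1047R. *Lyz2* was higher at 12 weeks by 0.88 (standard error 0.33, limma p = 0.0186, adjusted p = 0.901, exact permutation p = 0.0133), by 1.27 within BRAF V600E and by 0.58 with PI3Kα H1047R. The sum of 11 macrophage markers was 8806, 8836, 9647 and 39555 normalized counts in the 4 libraries at 12 weeks, against 3293 to 9874 (median 5551) in the 7 libraries at 6 weeks. The 9 AT2 markers summed to 748896 to 1275819 (median 896585) at 12 weeks and 233472 to 1124622 (median 578398) at 6 weeks. The part of either cell type in *Lyz2* was not tested. Without BRAF V600E replicate 2 or PI3Kα H1047R replicate 2 at 12 weeks its unadjusted p-value was above 0.05.

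The remaining differences between 12 and 6 weeks were 0.77 for *Lcn2*, 0.73 for *Chia1*, 0.52 for *Il18*, -0.24 for *Il33* and -1.61 for *Lyz1*, and *C3* was at 0 to 2 decimals. With single libraries left out, *Lcn2* ran from 0.48 to 1.16 and *Chia1* from 0.41 to 1.04. *Il18* then ran from 0.11 to 0.98 and *Lyz1* from -2.21 to -0.79. By limma, 2 of the 8 genes had an unadjusted p-value under 0.05, both higher, against 5.31% of all genes in either direction and 2.3% that were higher, and 0 genes of all tested had an adjusted p-value under 0.05. The 12 week mice received less virus, and titer and week cannot be told apart.

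From 2 to 6 weeks p.i. *Il33* was higher by 1.68 (standard error 0.52, limma p = 0.0062, adjusted p = 0.244, exact permutation p = 0.0333) and *Lcn2* by 1.503 (limma adjusted p = 0.340). *C3* was lower, with a log2 difference of -1.001 (limma adjusted p = 0.365). These were the 3 of 8 genes under an unadjusted 0.05, against 11.9% of all genes, and 0.0513% of all genes had an adjusted p-value under 0.05. All 3 rose above 0.05 without PI3Kα H1047R replicate 2 at 2 weeks, where the differences were 0.99 for *Il33*, 0.89 for *Lcn2* and -0.55 for *C3*. Over the 14 cases with a library left out, the unadjusted p-value was above 0.05 in 4 for *C3*, 2 for *Lcn2* and 1 for *Il33*. *Lyz1* had a difference of 1.47, *Chia1* of 0.89, *Slpi* of 0.74, *Lyz2* of 0.39 and *Il18* of 0.37. With single libraries left out, *Chia1* ran from 0.19 to 2.27. Within BRAF V600E/PI3Kα H1047R *Chia1* was higher at 6 weeks by 2.46, *Il33* by 2.40, *Lcn2* by 2.21 and *Lyz2* by 1.14, while *C3* was at -1.36, *Il18* at -0.40 and *Lyz1* at -0.49. Within BRAF V600E the corresponding values, against 1 library at 2 weeks, were -1.90, 0.42, 0.11, -0.95, -0.41, 1.60 and, for *Lyz1*, 5.14 (limma adjusted p = 0.434). Whether these genotypes differed in the change from 2 to 6 weeks was not tested. The pair of 2 week libraries with PI3Kα H1047R also had the lowest AT2 and, with replicate 1 at 6 weeks, the highest endothelial marker sums, given above.

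**Figure D3:**
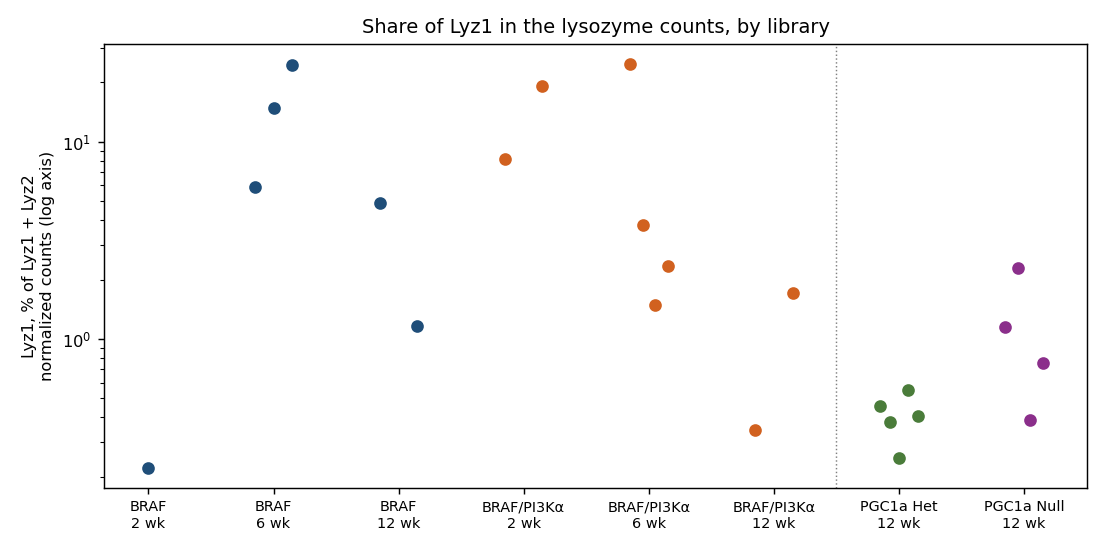
Share of *Lyz1* in the summed normalized counts of *Lyz1* and *Lyz2* (percent, log axis), one point for each library by genotype and week. The share runs from 0.223% to 24.7% in the first table and from 0.249% to 2.28% in the second.

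The balance of the pair of lysozymes varied between libraries of the same genotype and week. *Lyz1* was 0.223% of the lysozyme counts in the BRAF V600E library at 2 weeks, 5.88%, 14.9% and 24.6% at 6 weeks and 4.87% and 1.16% at 12 weeks. With PI3Kα H1047R it was 8.14% and 19.1%, then 24.7%, 3.77%, 1.48% and 2.35%, then 0.347% and 1.71%. In PGC1α Het libraries the share was 0.249% to 0.549%, and in the PGC1α Null libraries it was 1.15%, 2.28%, 0.388% and 0.757%, of which 3 exceeded every PGC1α Het library. High and low shares occurred in both genotypes of the first table, and the highest, 24.7% and 24.6%, were those of 1 library of each genotype at 6 weeks.

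**Figure D4:**
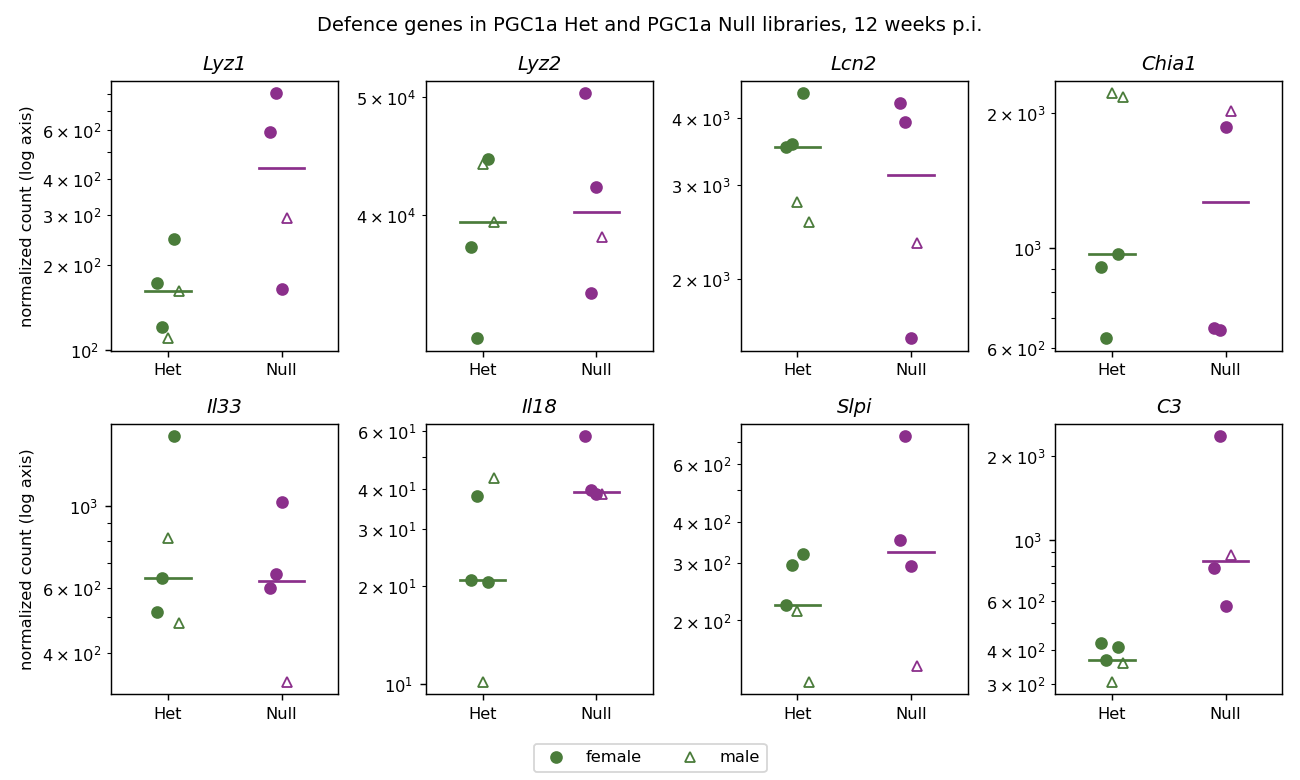
Normalized counts (log axis) of the 8 genes in 5 PGC1α Het (green) and 4 PGC1α Null (purple) libraries at 12 weeks p.i.; filled circles are female, open triangles male, and bars are medians. *C3* is higher in all 4 PGC1α Null libraries than in every PGC1α Het library, and *Lyz1* in 3 of 4.

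The third comparison asks how loss of PGC1α relates to the same genes in BRAF V600E tumors at 12 weeks p.i. *C3* and *Lyz1* were higher in PGC1α Null cells, and the log2 differences of *Lyz2*, *Lcn2*, *Chia1* and *Il33* lay between -0.26 and 0.06. Over all alternatives run, *Lyz2* ran from -0.12 to 0.24 and *Lcn2* from -0.87 to 0.50. *Chia1* ran from -1.48 to 0.61 and *Il33* from -0.54 to 1.00. None of the 8 genes had an adjusted limma p-value under 0.05, and neither did any of the 17424 genes tested (0%). Unadjusted, 2 of the 8 had a p-value under 0.05, both higher, where 3.83% of all genes were under it and 2.66% were under it and higher. The median log2 difference was 0.29 over the 8 genes and 0.01 over all genes.

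*C3* had 424, 366, 307, 409 and 359 normalized counts in PGC1α Het libraries and 790, 2359, 574 and 879 in PGC1α Null libraries. The groups do not overlap, as for 0.941% of all genes in this direction. The means were 373 ± 46.3 (SD, n = 5 libraries) and 1151 ± 816 (SD, n = 4 libraries), and the highest library, replicate 2, was far above the others. The log2 difference was 1.41 (standard error 0.34, limma adjusted p = 0.541). The exact permutation test gave p = 0.0079, the smallest that its 126 splits allow. Leaving out single libraries gave differences from 0.99, without PGC1α Null replicate 2, to 1.67.

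*Lyz1* had 173, 121, 110, 246 and 161 normalized counts in PGC1α Het and 586, 805, 164 and 293 in PGC1α Null libraries. Replicate 3 of PGC1α Null lay within the PGC1α Het range and the others above it. The means were 162 ± 53.8 (SD, n = 5 libraries) and 462 ± 289 (SD, n = 4 libraries), with a log2 difference of 1.32 (standard error 0.42, limma adjusted p = 0.879). The exact permutation test gave p = 0.0476.

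Markers of some other cells were also higher in PGC1α Null libraries. The sum of 6 club cell markers, the secretory cells of the airway, was 1879 to 3571 normalized counts in PGC1α Het and 4725, 21669, 5207 and 6001 in PGC1α Null libraries, without overlap, and replicate 2 was highest in this sum as in *C3* and *Lyz1*. The sum of 6 endothelial markers was 182 to 566 and 741 to 1585, also without overlap. Its highest value was that of PGC1α Null replicate 4, not of replicate 2. The 9 AT2 markers summed to 505816 to 637518 and 391177 to 628192, and 11 macrophage markers to 634 to 4692 and 2333 to 13325, both overlapping. *Ptprc*, a gene of all white cells, was 131 to 524.8 normalized counts in PGC1α Het and 525.1 to 1094 in PGC1α Null, without overlap, and 7 fibroblast markers summed to 93.3 to 359 and 348 to 1388, which overlap. With the club score as a covariate, chosen once the values were known, the log2 difference was 0.26 for *C3* (limma adjusted p = 0.784) and 0.21 for *Lyz1* (limma adjusted p = 0.882). With the endothelial score instead, also chosen later, these were 1.46 and 1.66 (limma adjusted p = 0.792 for both). In each of these fits the unadjusted p-value was above 0.05. The genotypes do not overlap in the club or the endothelial sum, and the part of other cells in *C3* and *Lyz1* was not tested further.

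**Figure D5:**
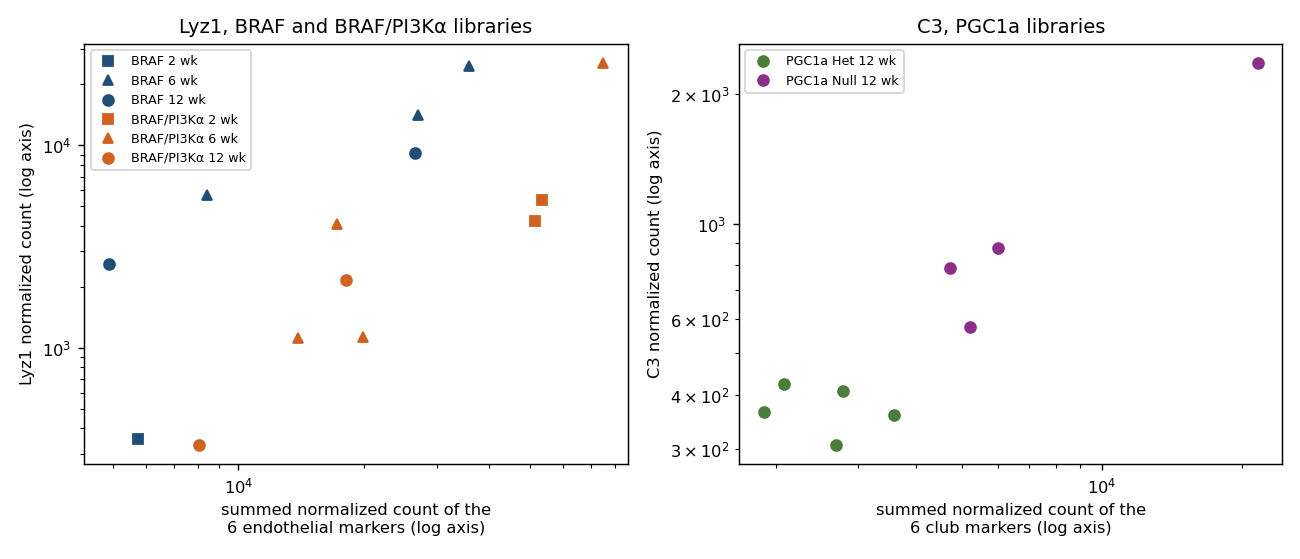
Left, *Lyz1* against the summed normalized counts of 6 endothelial markers in 14 libraries of BRAF V600E and BRAF V600E/PI3Kα H1047R tumors; right, *C3* against the summed counts of 6 club cell markers in 9 PGC1α Het and PGC1α Null libraries, both with log axes. PGC1α Null replicate 2 has both the highest club sum, 21669, and the highest *C3*, 2359.

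The other 6 genes differed less. *Il18* had 20.9, 37.9, 10.2, 20.6 and 43.2 normalized counts in PGC1α Het and 57.9, 39.5, 38.5 and 38.5 in PGC1α Null libraries, which overlap, with a log2 difference of 0.83 (standard error 0.47, limma adjusted p = 0.998, exact permutation p = 0.0952). *Slpi* had 222, 296, 214, 320 and 130 against 353, 730, 294 and 146 normalized counts, a log2 difference of 0.52 (limma adjusted p = 0.998). With single libraries left out, the difference of *Slpi* ran from 0.13 to 0.90. Its unadjusted limma p-value was above 0.05 in 8 of these 9 cases. *Lyz2* was 31653 to 44478 and 34508 to 50359 normalized counts, with a difference of 0.06.

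*Lcn2* was 2554 to 4458 and 1544 to 4267 normalized counts (log2 difference -0.25), *Il33* 481 to 1539 and 334 to 1023 (-0.26) and *Chia1* 629 to 2214 and 656 to 2024 (-0.10). In each of these the PGC1α Null range overlapped that of PGC1α Het. *Chia1* was 2214 and 2170 in the male PGC1α Het libraries and 629 to 972 in the female ones, and in PGC1α Null it was 2024 in the male and 665, 656 and 1865 in the female libraries. High values thus occurred in all 3 male libraries and in 1 of 6 female libraries. In the first table the lowest *Chia1*, 455 and 290, was in the male pair with PI3Kα H1047R at 2 weeks. The highest, 7199, was in a female library. In the second table *Kdm5d* had 228 to 962 normalized counts in libraries labelled female and 1291 to 1941 in those labelled male. The part of sex in *Chia1* was not tested further.

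The wider defence genes were read from 6 lists of 114 genes, of which 95 had enough counts to be tested in each table. At an adjusted limma p-value under 0.05 there were 0 in the pooled PI3Kα H1047R comparison and 0 between PGC1α Null and PGC1α Het. Unadjusted, 13 were under 0.05 with PI3Kα H1047R, 4 higher (3.46% of all genes) and 9 lower (3.38%). In PGC1α Null 12 were, 11 higher (2.66% of all genes) and 1 lower (1.17%).

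With PI3Kα H1047R the secreted antimicrobial and antiprotease proteins had a median log2 difference of -0.63 over 16 genes tested, with 2 under an unadjusted 0.05 higher (3.46% of all genes) and 4 lower (3.38%). *Dmbt1*, a mucosal scavenger protein, had a median of 249 normalized counts in BRAF V600E and 39.6 with PI3Kα H1047R libraries (log2 difference -2.75, limma adjusted p = 0.520). *Sftpa1*, the surfactant collectin and also 1 of the 9 AT2 markers, had a difference of -1.53 (limma adjusted p = 0.595). The AT2 markers had a median of -0.92 in the same comparison, with 9 of 9 negative. The medians were -0.71 for 3 lysozyme and chitinase-like genes, 0.30 for 19 complement genes, 0.09 for 22 genes of the IL-1 family and its processing, 0.11 for 27 genes of microbial sensing and NF-kB output and 0.03 for 8 genes of lipocalin and iron handling, beside 0.02 for all genes.

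Several of these values changed without the 3 libraries of highest endothelial and lowest AT2 marker sums, a choice made once the values were known. The median was then -0.02 for the 16 secreted proteins, 0 of them higher and 3 lower at an unadjusted 0.05, where 3.08% of all genes were higher and 3.2% lower, and it was -0.02 for the AT2 markers. It was -0.17 for complement, with its sign turned, -0.62 for the lysozyme and chitinase-like genes, 0.08 for the IL-1 family, 0.10 for sensing and NF-kB output and 0.27 for iron handling, beside 0.02 for all genes. *Dmbt1* was at -2.38 (limma adjusted p = 0.522) and *Sftpa1* at -0.60 (limma adjusted p = 0.761). Of the 96 wider genes tested in these 11 libraries, 3 were higher and 7 lower at an unadjusted 0.05. At a limma adjusted p-value under 0.05 there were 0 of them, against 6 of all 17527 genes tested. The part of the marker sums in the wider genes was not tested further.

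Over all 14 libraries, single genes of these lists with the lowest p-values included *C4b*, which continues the classical complement route, with a log2 difference of 1.23 (limma adjusted p = 0.587), and *Nlrp3*, an inflammasome sensor, with -2.29 (limma adjusted p = 0.625). *Tlr4*, the receptor for bacterial lipopolysaccharide, had -0.67 (limma adjusted p = 0.689). *Trf*, transferrin, and *Slc22a17*, a receptor for lipocalin 2, had -1.06 and 0.76 (limma adjusted p = 0.636 for both). *Il1r1*, the receptor for IL-1, had -0.59 (limma adjusted p = 0.672). *Chil1*, *Chil3*, *C6* and *Tlr2* had -1.09, 0.89, -1.25 and 1.56, with unadjusted p-values above 0.05.

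In PGC1α Null cells the medians were 0.76 for 14 secreted proteins, 0.65 for 3 lysozyme and chitinase-like genes, 0.51 for 19 complement genes, 0.22 for 23 genes of the IL-1 family, 0.11 for 28 genes of sensing and NF-kB output and -0.04 for 8 genes of iron handling, beside 0.01 for all genes. Among the complement genes, *C4b* had 17.3 to 48.8 normalized counts in PGC1α Het and 36.1 to 497 in PGC1α Null (log2 difference 2.11, limma adjusted p = 0.825). *Bpifb1* and *Reg3g*, secreted proteins of the airway lining, had log2 differences of 3.52 (limma adjusted p = 0.618) and 3.17 (limma adjusted p = 0.704). *Il17ra*, the receptor for IL-17, was 152 to 248 normalized counts in PGC1α Het and 327 to 409 in PGC1α Null libraries, without overlap (log2 difference 0.94, limma adjusted p = 0.541). *Serping1*, the inhibitor of C1, had a difference of 2.40, *Tlr2* of 1.72, *Chil3* of 1.76 and *Casp1*, the protease that cuts IL-18, of 1.34, all with an unadjusted p-value under 0.05. *Chil3* is also 1 of the 11 macrophage markers, of which 6 were under it and higher, where 2.66% of all genes were. The club, endothelial and *Ptprc* levels given above do not overlap between the genotypes. The part of these cells in the wider genes was not tested. *Il1a*, *Chil4*, *Fth1* and *Lrp2* had 1.58, 0.65, 0.36 and -0.21, with unadjusted p-values above it.

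Neutrophils, which use *Lcn2* and *Lyz2* heavily, were read from a list of 11 genes. Its members *Camp* and *Elane* were at 0 in all 14 libraries of the first table and *Ly6g* was at most 2.67 normalized counts. Other members were present, *Ltf* at up to 603 normalized counts, *Cxcr2* at up to 458, *Csf3r* at up to 355 and *S100a8*, *S100a9* and *Retnlg* at up to 73.9, 71.5 and 71.0. The list summed to 483 to 777 normalized counts in BRAF V600E and 504 to 970 with PI3Kα H1047R. In the second table the list summed to 414 to 1208 in PGC1α Het and 752 to 1620 in PGC1α Null libraries, with *Camp* at up to 4.76, *Elane* at up to 5.27 and *Ly6g* at up to 16.3 normalized counts.

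As a description of likeness, the non-member genes with the highest Pearson correlation of log2 values over the 14 libraries were sought for each gene, and their correlation was then read in the 9 libraries of the second table. These were *Shank2* (r = 0.93) for *Lyz2*, *Nrp1* (0.89) for *Lyz1*, *Galnt12* (0.90) for *Chia1*, *Rhbdl2* (0.96) for *Lcn2*, *Pvr* (0.93) for *Slpi*, *Slc35f1* (0.97) for *Il33*, *Camkk1* (0.86) for *Il18* and *Gpatch11* (0.92) for *C3*. Over the 9 libraries the same pairs had r of -0.28, -0.30, 0.63, -0.30, 0.70, -0.20, -0.72 and 0.06 in that order. Each was the highest of all genes tested, over libraries in which the marker sums of AT2 and other cells vary widely, and 2 of the 8 pairs had an r over 0.5 in the libraries not used to find them.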

How the data were processed

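RNA of flow sorted tdTomato+ cells (integrity number above 6, Qiagen RNeasy micro, Nugen Ovation Ultralow V2) was sequenced by the study in 50 single-end cycles. The signal values in the deposited tables are normalized counts: abundances came from Salmon and were scaled by the authors with DESeq2, both run in Galaxy with default options, separately for each table, after FastQC, on GRCm38 per the labels, with versions not given in the sources used here. At most 54.5% of values under 20 were whole multiples of 1 step within 0.02, so reads and depth were not recovered and no count test was run. Deposited comparison tables hold the authors' fold changes, standard errors, Wald statistics and p-values and were not used.

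Samples were grouped by their labels, and 0 library columns were left unmapped. Genes that averaged at least 10 normalized counts were compared on log2 (normalized count + 1) by limma 3.58.1 (R 4.3.3, trend, two-sided) with Benjamini-Hochberg adjustment over all genes tested, at an adjusted p-value under 0.05. Genotype was the only term in the pooled and PGC1α comparisons, genotype and week in those between weeks, and 1 mean per genotype and week in those by week. Exact permutation tests were two-sided on the difference of mean log2 values. Fold changes of low genes are understated on this scale. The fit was tested on simulated data. Python 3.11.15 with numpy, pandas, scipy and matplotlib was used.

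The members and lists were chosen with earlier results of these data known. All 8 members were named in every comparison, with *Ppargc1a* and *Pik3ca* as targets, the 2 genes of lowest p in each wider list where none passed, and for likeness the 2 genes of highest Pearson correlation, of which the first is given. Alternatives were a pseudocount of 4, a mean of at least 40, no filter, quantile normalization, sex, week or replicate number as a factor, single genotypes or weeks, and each library left out. Added after the values were seen were marker scores as covariates, 2 choices of 11 libraries, all alternatives at 2 and 12 weeks and for the interaction, and 12 week pairings. Sequences were read from GENCODE vM21 and RefSeq. The sample labels describe separate mice.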

Additional observations from a re-analysis of the deposited data

Results flagged for a closer look

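Of 40 sets of values, each of the 8 genes in each of 4 genotypes and in the 4 libraries with PI3Kα H1047R at 6 weeks, 2 held a library that stood apart by Dixon's criterion at 95%, and chance flags about 1 in 20 sets. *C3* in BRAF V600E/PI3Kα H1047R had 15149 normalized counts in replicate 2 at 2 weeks p.i., with a gap to the next library, on log2 values, of 0.527 of the group's range, just above the limit of 0.526 for 8 libraries. *Il18* in PGC1α Null had 57.9 normalized counts in replicate 1, where the other 3 lay at 38.5 to 39.5, a gap on the same scale of 0.941 of the range against a limit of 0.829 for 4 libraries. No cause was tested for either.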

How the results depend on the processing

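No member had an adjusted p-value under 0.05 in any comparison under any alternative run (lowest 0.064, *Chia1* at 2 weeks with a mean of at least 40), and 951 of 999 member values kept their sign. The 999 values are refits of the same 14 or 9 libraries, or of part of them, and are not independent checks. Genes called at an adjusted p-value under 0.05, over all genes, were as follows. Pooled, 4, and 7 at a pseudocount of 4, with 3 to 9 when a library was left out (9 without BRAF V600E/PI3Kα H1047R 12 week replicate 1). At 6 weeks, 4, and 7 at a pseudocount of 4, 1 without a filter, 7 by quantile normalization, 1 with sex, 10 from the 7 libraries alone and 1 to 12 with a library left out (12 without BRAF V600E 12 week replicate 1). At 2 weeks, 3, and 0, 107, 0 and 0 at a pseudocount of 4, without a filter, by quantile normalization and with sex. At 12 weeks, 2, and 4, 16 and 4 under the first 3 of these. For the difference between 12 and 6 weeks of the PI3Kα H1047R effect, 0, and 2 without a filter and 2 by quantile normalization. For 12 against 6 weeks, 0, and 2 within BRAF V600E/PI3Kα H1047R. For 6 against 2 weeks, 9, and 3 at a pseudocount of 4, 4 by quantile normalization, 4 with sex, 0 within BRAF V600E, 28 with PI3Kα H1047R, 246 with the endothelial score and 1 to 102 with a library left out (102 without the single BRAF V600E library at 2 weeks). The cause of these shifts was not tested.

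Log2 differences that turned their sign were small in most cases. Pooled, *C3* was -0.048 without the 3 libraries of highest endothelial sums. At 2 weeks, *Il18* was -0.83 with sex. At 6 weeks, *Lyz2* was 0.00086 by quantile normalization and -0.35 to 0.039 with a library left out, *Chia1* -0.39 to 0.50 and *C3* -0.57 to 0.21. For 12 against 6 weeks, *C3* was 0.036 by quantile normalization, 0.059 with sex, 0.44 within BRAF V600E/PI3Kα H1047R, 0.29 with the endothelial score and -0.14 to 0.28 with a library left out, *Il33* was 0.28 within BRAF V600E and -0.56 to 0.19 with a library left out, and *Il18* was -0.65 within BRAF V600E. For 6 against 2 weeks, *Il18* was -0.40 with PI3Kα H1047R and -0.055 to 0.84 with a library left out, *Lyz2* -0.95 within BRAF V600E and -0.14 to 1.03, *Lyz1* -0.49 with PI3Kα H1047R and -0.59 to 2.36, and *Chia1* -1.90 within BRAF V600E. In PGC1α Null against Het, *Lyz2* was -0.12 by quantile normalization and -0.035 to 0.15, *Chia1* 0.093 with sex, 0.61 with the club score and -0.38 to 0.16, *Slpi* -0.64 with the club score, *Lcn2* 0.50 and *Il33* 1.00 with the endothelial score, and these were -0.45 to 0.035 and -0.51 to 0.025 with a library left out. A mean of at least 40 gave no value for *Il18* in this table.

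Same-numbered libraries were not more alike than others at 6 weeks or in the PGC1α table. Their deviations from the group mean correlated at -0.28 to -0.01 and at -0.47 to 0.21. Those of differently numbered libraries correlated at -0.14 to 0.20 and at -0.36 to 0.55. At 12 weeks, with 2 libraries a genotype, the deviations mirror each other. The same-numbered -0.15 and the crossed 0.15 therefore cannot test pairing. With the replicate block the genes called were 0 at 6 weeks and 0 for 6 against 2 weeks, and log2 differences with another sign were 0.039 for *Lyz2* and -0.0053 for *Chia1* at 6 weeks, 0.094 for *C3* for 12 against 6 weeks, -0.15 for *Il18* for 6 against 2 weeks and 0.11 for *Chia1* in PGC1α Null. In the 4 libraries at 12 weeks alone 0 genes were called with the block and 0 with the numbers crossed.

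The unknown read depth, 1 BRAF V600E library at 2 weeks and 2 a genotype at 12 weeks limit what these data can show. Sex at 2 weeks and virus titer at 12 weeks go with the groups.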
